A study of Mus musculus with 13 samples.

Results

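C/EBPα ChIP-seq in LSK cells gave 17899 candidate regions, and 909 of these (5.08%) had their centre in a coding exon or a 3' UTR. Membership was decided by position alone. The midpoint of the region had to lie in a coding exon or 3' UTR of a protein-coding transcript and more than 1000 bp from the transcription start site (TSS) of every protein-coding gene, taking the longest transcript of each gene. A position that was coding in any transcript was counted as coding, which left 666 regions in coding exons and 243 in 3' UTRs. They fell in 865 genes. For comparison, 7159 candidates were intronic, 9174 intergenic, 638 lay within 1000 bp of a TSS and 19 in a distal 5' UTR. Of the exonic candidates nearest to the distance limit, those counted were in Tff2 (1071 bp from a TSS, score 79.92) and Ier2 (1079 bp, score 99.33). Those left out were at Zscan29 (994 bp, score 62.89) and Alppl2 (976 bp, score 82.18).

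LSK cells (lineage-negative, Sca-1+ Kit+ bone marrow cells) hold the hematopoietic stem cells and multipotent progenitors. The list was deposited with 1 library, made with an antibody against C/EBPα (Santa Cruz 14-AA) from LSK cells of C57BL/6 cebpa flox/flox;Mx1Cre mice. Mx1Cre is a Cre recombinase whose promoter is switched on by interferon, but the labels of this library do not say whether the cells were recombined. An IgG mock library of the same strain was the control for peak calling. A second C/EBPα LSK library, from cebpa flox/flox mice without Mx1Cre, may have entered the call as well, which the sources used here do not say. Its reads and the GMP, IgG and histone libraries were not analysed here. The list carries no read counts, so the depth behind its values could not be used, and with 1 list no replicate error can be given. Values are therefore counts and medians set beside the same over all candidates, with 95% intervals (exact binomial for shares, exact Poisson for rates) that cover counting error only. For a count of 0 the upper limit given is 3 counts of the total.

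C/EBPα is a basic leucine zipper transcription factor that drives granulocyte-monocyte differentiation. It binds DNA as a dimer, and its usual site is a short palindrome of the TTGCGCAA kind. Most known sites of such factors lie in promoters and in enhancers in introns or between genes. Exons are richer in G and C than the surrounding DNA, and DNA composition affects how efficiently fragments are recovered in ChIP-seq. The exonic regions were therefore examined for features of bound sites (high scores, C/EBP words at the centre, a place in the filtered list) and for features of the sequence around them (GC content, exon length, repeats).

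The sequences that set a few of these regions apart are C/EBP words, printed here as 30 bases of the NCBIM37 (mm9) genome with the word in capitals, read 5' to 3' on the strand where it reads TTGC. The first group comes from regions that are also in the 397-region high-confidence list of the study. Bend4, a region of that list whose C/EBP word nearest the centre is TTGCCAAA, is not printed.
Btbd19, 3' UTR, chr4:116793148-116793177, plus strand: ctttgggcccaTTGCGCAAtccctactctt
Btbd19, 3' UTR, chr4:116793082-116793111, minus strand: ggtggcctttgTTGCATAAgctcatgcggc
Mapkapk3, coding exon, chr9:107182969-107182998, plus strand: atccttacctcTTGCGCAAtggccggcaca
Hook3, 3' UTR, chr8:27134505-27134534, minus strand: atgtggctaaaTTGCACAAgactacctggc
Med29, 3' UTR, chr7:29171194-29171223, plus strand: ctccccacacaTTGCACAAtatcccccctc
Ube2w, 3' UTR, chr1:16561029-16561058, plus strand: agtcactgttaTTGCACAAtacacgaggac
Slc44a3, intron beside the exon, chr3:121212220-121212249, plus strand: gatgcctctggTTGCACAAgaggtcacgtg
Fam105a, intron beside the exon, chr15:27594132-27594161, plus strand: cttccactctcTTGCACAAtaactgagtaa
Trim46, coding exon, chr3:89047637-89047666, plus strand: gtggtgggggcTTGCACAActggcacagga
The second group comes from the other regions with TTGCGCAA within 70 bp of their centre, none of which is in that list.
Fam193a, coding exon, chr5:34779171-34779200, plus strand: ctgaggaagagTTGCGCAAagttgctgagg
Olfr2, coding exon, chr7:114144466-114144495, plus strand: tgacttcttgaTTGCGCAAgcagtagatga
Papss2, coding exon, chr19:32737554-32737583, plus strand: ttgcattccagTTGCGCAAtcctgtccaca

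Coding exons held more candidates per Mb than any other class of sequence, promoters included. There were 21.5 candidates per Mb of coding exon (95% interval 19.9 to 23.2) over 30.9 Mb, and 9.6 per Mb of 3' UTR (8.43 to 10.9) over 25.3 Mb. Within 1000 bp of a TSS the rate was 15.1 per Mb (13.9 to 16.3), in introns 7.98 (7.8 to 8.17) and between genes 5.88 (5.76 to 6.0). Coding exons and 3' UTRs beyond the TSS limit made up 2.2% of the genome and 5.08% of the candidates, which is 2.31 times the rate of the whole genome. The coding-exon rate was 2.7 times that of introns, and the 3' UTR rate 1.2 times. Intronic positions close to a coding exon were also dense in candidates. The rate was 13.7 per Mb (12.4 to 15) within 99 bp of a coding exon and 10.1 (9.19 to 11.2) at 100 to 249 bp, against 6.96 (6.72 to 7.21) at 5000 bp or more.

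**Figure D1:**
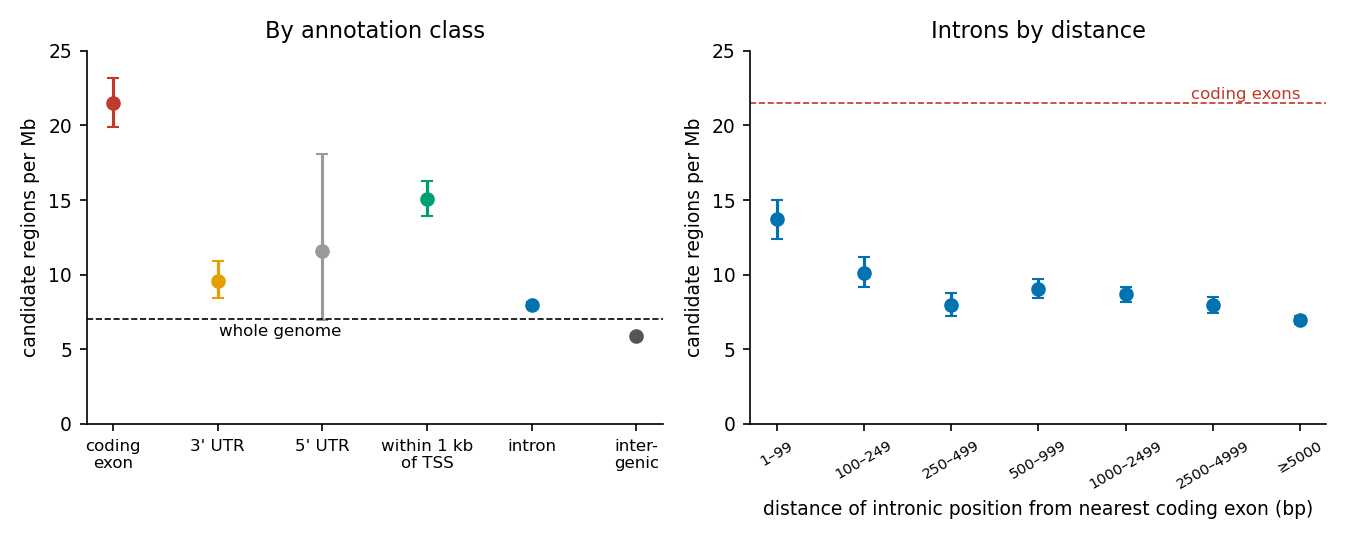
Candidate regions per Mb by annotation class (left) and, for introns, by distance of the position from the nearest coding exon in bp (right); points are rates and bars 95% exact Poisson intervals. Coding exons lie highest at 21.5 per Mb, and introns go from 13.7 per Mb beside coding exons to 6.96 at 5000 bp or more.

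The exonic regions were rich in GC. Their median GC content was 51.5% (quartiles 48.1 and 55), with 52.3% in coding exons and 49.8% in 3' UTRs, beside 48.6% for intronic, 48.3% for intergenic and 48.7% for all candidates. Over all coding-exon positions a window of 586 bp had a median of 48%, and over all 3' UTR positions 44%, so the regions lay above the sequence class they came from. They also lay above their own surroundings. The central 500 bp had a higher GC content than the mean of the 500-bp windows centred 1000 bp to each side in 810 of the 909 regions (89.1%), and in 85.1% of all candidates. Median CpG density was 2.02 per 100 bp in the coding-exon regions and 1.48 in the 3' UTR regions, beside 1.15 over all candidates and 4.27 near a TSS.

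Once positions of like GC content were compared, exons lost most of their lead. Between 50 and 55% GC there were 34.1 candidates per Mb of coding exon (29.9 to 38.8), 22.6 in 3' UTRs (18.2 to 27.8), 25.3 in introns (24.3 to 26.4) and 27.9 between genes (26.8 to 29.1). Between 55 and 60% the order changed, with 31.0 (26.3 to 36.3) in coding exons and 37.7 (34.5 to 41.2) between genes. At 40 to 45% GC coding exons still had 10.8 per Mb (8.27 to 13.9), beside 4.53 (4.28 to 4.79) in introns and 3.63 (3.46 to 3.81) between genes. Applying intron rates in steps of 1% GC to the GC content of coding exons gave 491 regions, and the 666 observed were 1.36 times that number (1.26 to 1.46). With intergenic rates the number was 609 and the ratio 1.09 (1.01 to 1.18). For 3' UTRs the 243 observed were 0.923 times the number at intron rates (0.811 to 1.05) and 0.838 times that at intergenic rates (0.736 to 0.95). At matched GC, the lead of coding exons was thus 1.36-fold over introns in place of 2.7-fold, and 3' UTRs had none. The part of fragment recovery in these rates was not tested.

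**Figure D2:**
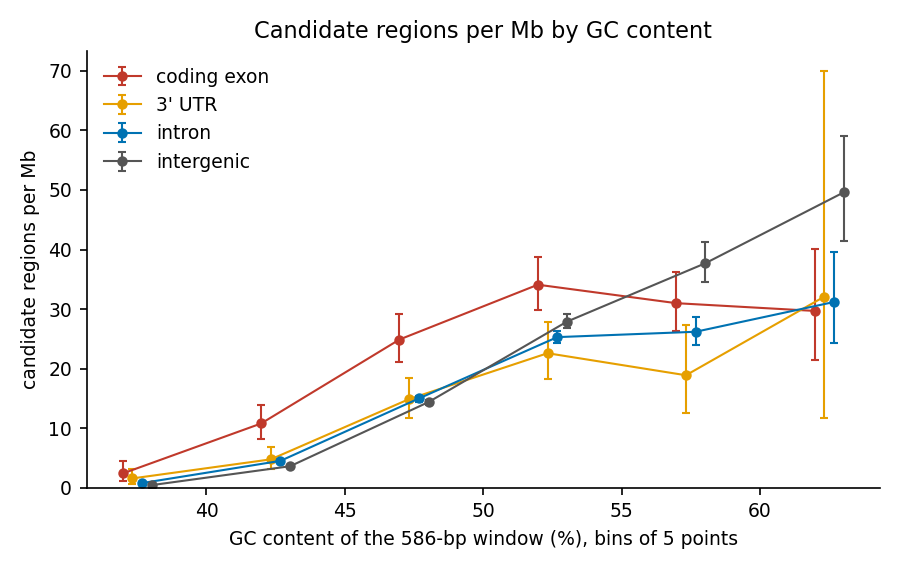
Candidate regions per Mb against GC content of the 586-bp window (bins of 5 percentage points) for coding exons, 3' UTRs, introns and intergenic sequence; bars are 95% exact Poisson intervals, and bins below 35% or above 65% are not drawn. All classes lie under 3 per Mb at 35 to 40%, coding exons lie highest from 40 to 55%, and intergenic sequence from 55 to 65%.

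The scores of the exonic regions were low. The score is 10 times the −log10 of the p-value that the peak caller gave, so the calling threshold stands at 50. Its median was 67.7 in coding exons and 67.8 in 3' UTRs, against 71.5 in introns, 75.4 between genes, 82.2 near a TSS and 73.8 over all candidates. A score of at least 100 was reached by 79 of 666 coding-exon regions (11.9%, 9.5 to 14.6) and 41 of 243 3' UTR regions (16.9%, 12.4 to 22.2), while 20.3% of all candidates and 22.1% of the intergenic ones (21.2 to 22.9) did so. A score of at least 200 was reached by 8 of the 909 (0.88%, 0.381 to 1.73), beside 2.06% of all candidates. Scores were lower where GC was higher. The median was 75.4 in the 98 exonic regions under 45% GC and 64.2 in the 47 at 60% or more, and a score of at least 100 was reached by 30.6% of the first and 6.38% of the second. Across the 909 regions, which share 1 list, Spearman's rho between GC content and score was -0.207 (Pearson's r with the log2 score -0.202), and across all candidates -0.139 (-0.0496). Among the exonic regions, Prnd, Gpd2 and Kif9 were the only ones above 200 that the high-confidence list does not hold. Prnd, which encodes the prion-like protein doppel, had a region in its 3' UTR with a score of 269.92. Gpd2, a mitochondrial glycerol-3-phosphate dehydrogenase, scored 240.61 in exon 12 of 17, and Kif9, a kinesin, 221.88 in exon 8 of 25.

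**Figure D3:**
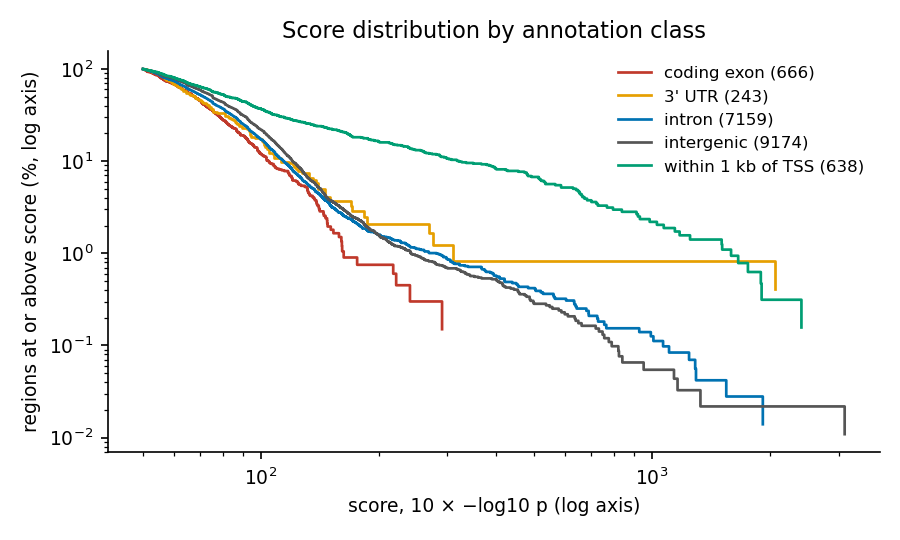
Share of regions at or above each score, by annotation class (both axes logarithmic; number of regions in parentheses). The coding-exon curve lies lowest and ends at 290.64, the 3' UTR curve ends at the Btbd19 region with 2055.49, and the curve for regions within 1000 bp of a TSS lies highest through most of the range.

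High-confidence regions were scarce in coding exons. The study filtered the candidates by peak height, presence in both C/EBPα libraries, IgG level, clustering and inspection by eye, which kept 397, or 2.22% of all candidates. Of the exonic regions 10 were kept (1.1%, 0.529 to 2.01). These were 4 of 666 in coding exons (0.601%, 0.164 to 1.53) and 6 of 243 in 3' UTRs (2.47%, 0.911 to 5.3). The shares were 1.76% in introns (1.47 to 2.09), 1.53% between genes (1.29 to 1.8) and 18.7% near a TSS (15.7 to 21.9). The coding-exon share was below those of introns and intergenic sequence, but its interval reached into theirs. All 10 lay in different genes. Among exonic regions scoring at least 200, 5 of 8 were kept (62.5%, 24.5 to 91.5), beside 69.8% of all such candidates. Of the 358 scoring from 60 to under 80 none was kept, which allows a share of up to 0.838%, beside 0.264% of all candidates in that range.

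The highest of the 10 by far was the 3' UTR region of Btbd19, a gene for a BTB-domain protein, on chromosome 4 (116792648 to 116793594). Its score of 2055.49 was the third highest of all 17899 candidates, and it held 4 C/EBP words, the nearest 24 bp from its centre. Next came Hook3, a microtubule adaptor for dynein, with 309.81 in its last exon. Slc44a3, a choline transporter-like protein, had 290.64 at exon 9 of 15, and Med29, a Mediator subunit, 275.69 in its 3' UTR. Mapkapk3, a kinase activated by p38, had 218.06 in the first exon of a transcript with 2 exons, 9143 bp from the TSS of its longest transcript. The Mapkapk3 region held the whole of that exon, and so the start of the shorter transcript. It counts as distal only because the TSS limit used the longest transcript of each gene. Bend4, which encodes a BEN-domain protein, had 187.4, and Ube2w, a ubiquitin-conjugating enzyme, 183.82, both in 3' UTRs. The remaining 3 scored below 100. Fam105a scored 88.23, Trim46, a tripartite motif protein, 53.38, and Smcr8, a partner of C9orf72 in autophagy, 52.0. Within the high-confidence group the scores therefore ran from near the threshold to the top of the list.

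The C/EBP word TTGCNNAA or TTACNNAA was less frequent at the centres of the exonic regions than beside them, where GC content was lower. Both strands were searched for TTGCNNAA or TTACNNAA in a window reaching 70 bp to each side of the centre. It was present in 74 of the 909 regions (8.14%, 6.45 to 10.1), against 10.6% of all candidates, and in 11.6% (10.2 to 13.2) of windows of the same size 1000 bp to each side. The shares at the centre and in the flanks were 7.51% and 10.6% for coding exons, and 9.88% and 14.4% for 3' UTRs. The high-confidence list as a whole had the word at 51.6% of its centres (46.6 to 56.7) and 11.1% of its flanks. Because the word is rich in A and T, composition matters. The flanks were not limited to exons. Their median GC content, in windows of 500 bp, was 46.0%, against 52.4% in the central 500 bp of the exonic regions. Over all positions in coding exons and 3' UTRs the word was found in 11.5% of windows. At the GC content of the exonic regions it was in 6.46%, the lower end of the interval at their centres. That equals 58.7 regions of 909, against the 74 found. The same letters in reverse order (AANNCGTT or AANNCATT), which have the same composition, were found in 62 of the 909 centres (6.82%, 5.27 to 8.66) and 11.1% of the flanks. Outside the high-confidence list, the exonic regions had the word at 8.01% of centres (6.32 to 9.98) and the reversed word at 6.9% (5.33 to 8.75). Introns had 9.14% (8.48 to 9.84) and 6.64% (6.07 to 7.25), and intergenic regions 9.82% (9.21 to 10.5) and 6.91% (6.39 to 7.45). The intervals of the word and its reverse overlapped in exonic regions and did not in introns or between genes, where the numbers of regions were far higher. The difference between these leads was not tested. The narrower word TTGCNNAA was at 5.39% of exonic centres (4.01 to 7.06) and in 4.84% of flanks (3.9 to 5.93). This difference was of the other sign, and its intervals overlapped. At the GC content of the exonic regions 4.12% of exonic positions held the narrower word, equal to 37.5 regions of 909, against the 49 found.

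**Figure D4:**
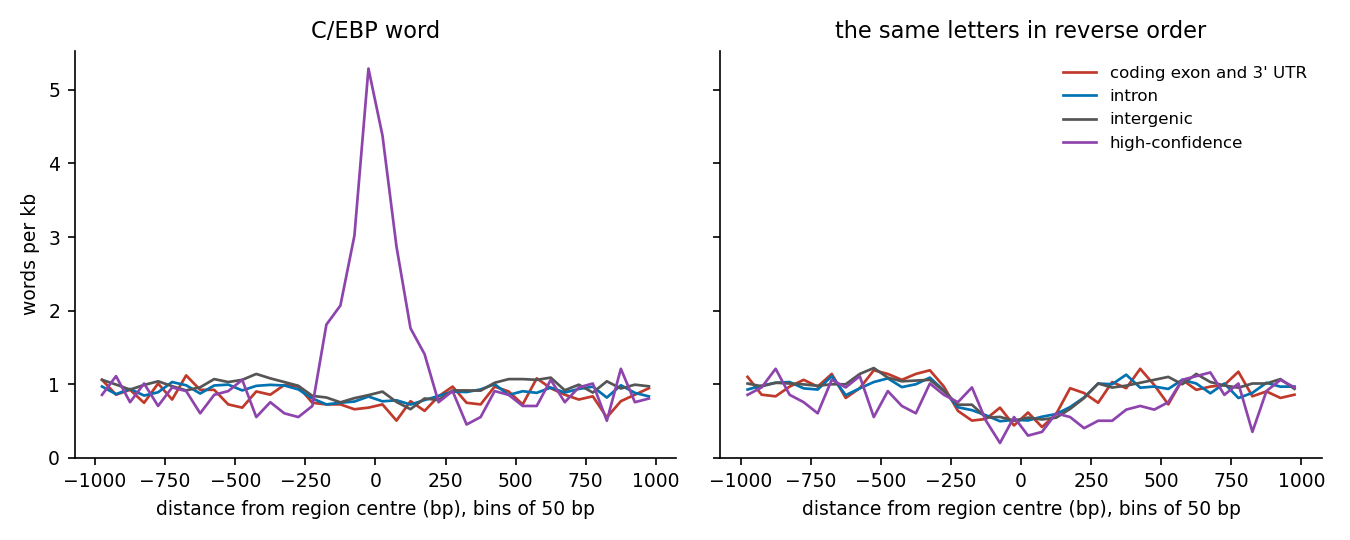
C/EBP words per kb (left) and the same letters in reverse order (right) against distance from the region centre in bins of 50 bp, for exonic, intronic, intergenic and high-confidence regions. High-confidence regions reach 5.29 words per kb beside the centre, while exonic regions stay at 0.682 and 0.726 in the bins on either side of it.

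The full palindrome was about as frequent as in all candidates, which themselves held it more often than their flanks. TTGCGCAA, which also holds a CpG, was found in that window in 4 of the 909 regions (0.44%, 0.12 to 1.12), beside 0.525% of all candidates. In the 1818 flanking windows there was none, which allows a share of up to 0.165%. The flanking windows of all candidates held it in 0.00559%. Over all coding-exon and 3' UTR positions it was found in 0.0264% of windows, and at the GC content of the regions in 0.0327%, equal to 0.297 regions of 909. Both shares lay below the interval at the centres, which rests on 4 regions. The 4 regions were those of Btbd19 (score 2055.49), Olfr2 (76.79), Fam193a (71.83) and Papss2 (53.65), whose sequences are printed above. Olfr2 encodes an odorant receptor and Papss2 an enzyme that makes the sulfate donor of sulfotransferases. In all 4 the word lay within the exon. Outside the high-confidence list, 3 of 899 exonic regions had it (0.334%, 0.0689 to 0.972), beside 0.269% of all candidates outside that list (0.197 to 0.357).

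Within the whole of each region, C/EBP words were more frequent in the 10 high-confidence members than in the rest. TTGCACAA and TTGCGCAA were picked after the sequences of those 10 had been seen, so their share in those 10 is not independent. The 2 words were then counted together in every region. One or the other was in 8 of the 10 (44.4 to 97.5%), in 26 of the other 899 exonic regions (2.89%, 1.9 to 4.21) and in 4.61% of all candidates. Over the full high-confidence list it was in 53.9% (48.9 to 58.9). The regions kept were longer, with a median of 798.5 bp against 592 bp for the others, and no share at matched length was computed. The wider word (TTGCNNAA or TTACNNAA) was in 9 of the 10 and in 33.6% of the other exonic regions (30.5 to 36.8), beside 36.3% of all candidates. Smcr8 had none. In most of the 10 the word lay off centre, at 24 bp in Btbd19 and 36 bp in Med29 but 81 bp in Mapkapk3, 100 bp in Hook3, 104 bp in Bend4, 111 bp in Ube2w, 119 bp in Trim46, 160 bp in Fam105a and 166 bp in Slc44a3. In Slc44a3 and Fam105a it lay outside the exon, in the flanking intron. Those 2 regions are thus exonic by their centre and intronic by their C/EBP word.

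Words for other factors were searched in the same windows. ETS factors, which include PU.1, and RUNX factors act with C/EBP proteins in myeloid cells, and SP1 binds GC-rich promoters. The ETS word (GGAAG with A or C before it and C or T after it) was at 99 exonic centres (10.9%, 8.94 to 13.1) and in 8.03% of flanks (6.82 to 9.38), beside 10.1% of all candidates. At the GC content of the regions 10.9% of exonic positions held it as well. The RUNX word (TGCGGT or TGTGGT with C or T after it) was at 5.17% of exonic centres (3.82 to 6.82) and 6.77% of all candidates, with 6.76% at matched GC. The SP1 word CCCGCCC was at 1.65% (0.926 to 2.71) and 1.58% of all candidates, with 1.99% at matched GC. None of the 3 stood outside its interval from what exonic sequence of the same GC content held.

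By exon position the regions followed the space available. In coding sequence, 520 of the 666 (78.1%) lay in internal exons, which held 77.9% of the coding space, and 137 (20.6%) in last exons, which held 19.4%. Rates were 21.6 per Mb (19.8 to 23.5) in internal and 22.8 (19.1 to 26.9) in last exons. First exons, with most of their sequence removed by the TSS limit, had 5 regions (11 per Mb, 3.58 to 25.8), and single-exon transcripts 4 (10.5 per Mb, 2.86 to 26.8). In 3' UTRs 235 of 243 lay in the last exon. Rates differed more by exon length. Coding exons shorter than 100 bp had 10.9 regions per Mb (7.85 to 14.8), those of 200 to 500 bp 31.4 (26.8 to 36.5) and those of 1000 bp or more 21.0 (17.8 to 24.7). Region edges were compared with the ends of the exon that held the centre. One edge lay within 25 bp of such an end in 50 of the 909 regions (5.5%), and both edges in none. The coding exons hit had a median length of 222 bp and their regions a median width of 594 bp. The low count therefore cannot tell whether region ends follow exon ends. Coding-exon regions reached past their exon as a rule, with a median of 43.8% of the region exonic, and 75 of 666 (11.3%) were wholly exonic. The median score was 68.1 in the 369 coding-exon regions with under 50% of their length exonic and 67.8 in the 75 wholly exonic ones. The median distance to the nearest TSS was 17686 bp, and 15.1% of the regions lay within 5000 bp of one.

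The genes hit held more coding exon and 3' UTR than genes at large. Of the 865 genes 821 had 1 region and 44 had 2, the highest number. Genes with a region had a median of 3.93 kb of coding exon and 3' UTR and those with 2 had 6.14 kb, against 2.19 kb over the 20337 genes with such sequence. A gene with more of this sequence offers more positions for a region centre, and no expected value by length was computed. Among the 10 of the 44 genes with the highest summed scores were Gpd2 (63.25 and 240.61, in neighbouring exons with centres 725 bp apart), Gpr98, a giant adhesion receptor (126.72 and 75.34), Ror2, a receptor for Wnt5a (131.75 and 69.3), and Lamc1, a laminin chain (81.75 and 80.41). The other 6 were Gapvd1, Ndufa9, Lpp, Heatr5a, Ankrd26 and Plxna2. In 6 of the 44 genes both regions lay in the same exon. Besides Slc44a3, Mapkapk3, Gpd2 and Kif9, the strongest coding-exon regions were in Dner (176.35), Adamts12 (162.94), Wnt5a (161.47), Ryr3 (161.2), Ptprq (160.71) and Prss35 (158.48). These encode a neuronal Notch ligand, a secreted metalloprotease, a Wnt ligand, a calcium release channel, a phosphatase of the inner ear and a serine protease-like protein. In 3' UTRs Kif5c (171.19), Tbc1d22a (169.94), Pgd (150.77) and Csrp2bp (146.15) followed those already named.

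Counted by family, few regions fell in each, and most rates could not be told from that of all genes at these counts. The 909 regions came to 16.2 per Mb (15.1 to 17.3). Of 21 families formed by gene symbol, 13 lay above this rate, and the interval of 1 left it out. This was the family of laminin and matrix glycoprotein genes, with 11 regions in 8 of 28 genes (47.9 per Mb, 23.9 to 85.7), among them Agrn, Fbn1, Lamc1 and Nid2. All 11 were in coding exons, as were 666 of the 909 regions. They scored at most 86.44, where the upper quartile of all coding-exon regions was 82.5. None held a C/EBP word at the centre, a word that only 7.51% of all coding-exon regions held there. With 1 region per gene the rate was 34.8 per Mb (15 to 68.6), and the interval took in the rate of all genes counted the same way (15.4). The families with the most regions were C2H2 zinc finger genes with 25 (14.0 per Mb, 9.08 to 20.7), solute carrier genes with 19 (16.3, 9.8 to 25.4) and dynein, kinesin and myosin genes with 13 (19.8, 10.5 to 33.9). Olfactory receptor genes had 6 (33.7, 12.4 to 73.5) and keratin genes 4 (48.8, 13.3 to 125.0). A list of 46 myeloid effector and regulator genes, among them the receptors Csf1r and Csf3r and the granule proteins Mpo and Elane, had 1 region. It lay in exon 9 of 17 of Ltf, which encodes the granule protein lactoferrin. It scored 63.15 and lacked the C/EBP word over its whole length, a word that 30.8% of all coding-exon regions held. The 1 gene hit is 2.17% of the list, beside 4.25% of all genes with such sequence. The rate for the list was 9.3 per Mb (0.235 to 51.8), an interval that took in the 16.2 of all genes. The family rates were not adjusted for GC content.

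**Figure D5:**
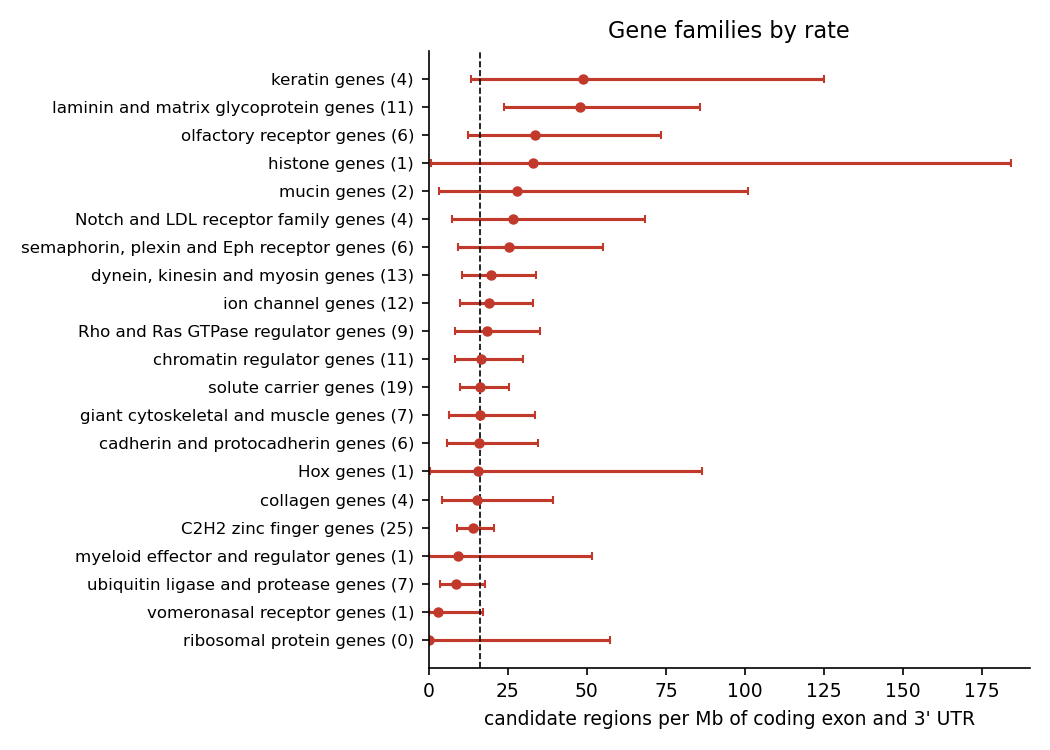
Candidate regions per Mb of coding exon and 3' UTR in 21 gene families (number of regions in parentheses), with 95% exact Poisson intervals; the dashed line is the rate over all genes, 16.2 per Mb. The interval of the laminin and matrix glycoprotein genes lies to the right of the line, and those of the other families cross it.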

How the data were processed

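Per the labels and the study's methods, the authors mapped ChIP-seq reads to mm9 with Bowtie and called C/EBPα peaks with MACS against an IgG mock library at a p threshold of 1e-05. The submitters' processing notes give Bowtie 0.12.8, bedtools 2.16.2 and MACS 1.4.2. Whether both C/EBPα LSK libraries entered the call is not given in the sources used here. The deposited list holds 17899 positions and a score, 10 × −log10 of the MACS p-value, with no reads, heights or summits, so the midpoint stood for the summit. The list filtered by the authors was used for its positions only.

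Positions were classed with the GENCODE vM1 annotation of NCBIM37 (22359 protein-coding genes, 51710 transcripts). Rates are per Mb of the same class. Repeated sequence was measured by 32-mers found more than once in the genome. Scripts (Python 3.11.15, pysam 0.24.0, scipy 1.17.1) were tested on simulated data. No test between groups was possible with 1 list. Genes named are the 10 highest-scoring regions of each kind, regions in the high-confidence list, regions with TTGCGCAA near the centre, 10 genes with 2 regions (by summed score, since 44 tied) and regions in the myeloid list. The regions and lists were chosen with earlier results of these data known, and 2 family patterns were tightened after their matches were seen. Alternatives are listed in the closing section.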

Additional observations from a re-analysis of the deposited data

How the results depend on the processing

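No paired analysis was possible because there is 1 list and no values per library. The number of regions was between 854 and 955 under 4 other definitions of the TSS limit and of the exons, and 560 when at least 50% of the region had to be exonic. With the TSSs of every transcript the number was 875. Some regions counted here, such as that of Mapkapk3, thus lay close to the TSS of a shorter transcript. The rate relative to the whole genome (2.31) became 1.91 against genes only. Other denominators were chosen after seeing the data, with which the ratio was 2.07 per Mb of 32-mers found once, 1.21 against introns and 1.01 against intergenic sequence at the same GC. The median score minus that of all candidates (-6.0) was 2.57 among candidates scoring at least 100. At that score the high-confidence share was 5.83% in place of 1.1% (all candidates 9.81% in place of 2.22%), and the median GC content 48.8% in place of 51.5%, or 52.4% in a fixed 500 bp. The C/EBP word share at the centre minus the flanks, in percentage points, was -3.46. It was 0.55 with TTGCNNAA and 0.44 with TTGCGCAA. It stayed negative with wider windows, with whole regions, with more distant flanks and among regions scoring at least 100. The reversed word, a control of the same composition, gave -4.28, which was lower than the value of the C/EBP word. Any repeated 32-mer was found in 24.0% of regions, where the mean share was 4.48%. The share of regions in internal exons stayed within its interval when the longest transcript of each gene was used. With 1 region per gene, the number of families above the rate of all genes stayed at 13. The list holds no read counts, so what depth limits could not be measured.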

Other observations

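Exonic regions were poorer in repeated sequence than other candidates, as was exonic sequence as a whole. On average 4.48% of their 32-mers occurred more than once in the genome, beside 7.99% for intronic, 17.4% for intergenic and 12.6% for all candidates. Over sampled positions, 93.6% of 32-mers in coding exons and 3' UTRs were unique. The figure was 89.3% in introns, 79.9% between genes and 83.7% over the genome. In 33 of the 909 (3.63%) over 50% of the 32-mers were repeated, and 9.65% of all candidates were of this kind. The 9 with a value of 100.0% included Amy2a4, an amylase of a tandem gene cluster, and Vmn2r56, a vomeronasal receptor. The highest score among the 33 was 140.24, in the 3' UTR of Obox2, an oocyte homeobox gene. These 3 genes were picked after their values were seen. None of the 33 was in the high-confidence list, which held 6 of the 1727 such regions among all candidates.

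The X chromosome held 2 of the 909 regions, or 0.912 per Mb of its coding exons and 3' UTRs (0.11 to 3.29), against 16.8 per Mb (15.7 to 17.9) on the autosomes. All other candidates were similarly rare there, at 0.938 per Mb (0.794 to 1.1) against 7.19 (7.09 to 7.3). The labels of this library do not give the sex of the mice, and the part of copy number in this difference was not tested.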
